A study of Rattus norvegicus with 18 samples.

Results

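The genes described here are 10 genes of the endoplasmic reticulum (ER) stress response, Hspa5, Hsp90b1, Hyou1, Pdia4, Sdf2l1, Manf, Herpud1, Xbp1, Atf4 and Ddit3, taken by symbol from the 38445 genes counted in the dorsal hippocampus of 18 Sprague Dawley rats. The rule takes them by symbol and uses no measured value. All rats were adult males, 75 to 85 days old when bought, housed singly and given a Lieber-DeCarli liquid diet, with the groups pair fed. The 6 Control rats received the diet without ethanol. The 6 Chronic Ethanol rats received diet with 9% ethanol for 16 days at full strength and were taken without withdrawal (0 h). The 6 Withdrawal rats received 9% ethanol diet for 15 days and then diet without ethanol for 24 h.

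The ER folds secreted and membrane proteins, and when unfolded proteins collect in it 3 sensors start the unfolded protein response. IRE1 (Ern1) splices the Xbp1 transcript, ATF6 is cut to a transcription factor, and PERK (Eif2ak3) slows translation while favouring that of ATF4. XBP1 and ATF6 switch on chaperone and degradation genes, and ATF4 switches on amino acid and stress genes, among them Ddit3, which encodes CHOP. Gene counts measure neither the splicing of Xbp1 nor the translation of Atf4, 2 main points of control in the response. In tissue from many cell types, fewer cells of a type and less RNA per cell cannot be told apart.

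Promoter sequence is shown for the 5 members that carry a full ER stress response element, the site described for ATF6 and XBP1 with the factor NF-Y. RefSeq windows (build GRCr8) of 250 bases before to 50 bases after the start of transcription were found for 9 of the 10 members. The element ERSE (CCAAT, then 9 bases of any kind, then CCACG, on either strand) was in the windows of 3 of these 9 members, against 21 of 27457 genes (0.0765%), 5 of 22 other ER chaperones and foldases and 1 of 13 genes of ER-associated degradation. ERSE-II (ATTGG, then 1 base of any kind, then CCACG, on either strand) was in those of 2 members, against 17 genes (0.0619%) and 1 of the 22. In the sequences, read 5′ to 3′ on the strand of the gene, capitals mark the fixed letters of the elements.
Hspa5: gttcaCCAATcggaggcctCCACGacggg
Hsp90b1: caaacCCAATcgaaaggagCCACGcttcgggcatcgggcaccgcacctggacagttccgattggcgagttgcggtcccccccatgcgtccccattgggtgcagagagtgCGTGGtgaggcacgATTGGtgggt
Xbp1: acaggCCAATcgcagacggCCACGaccct
Herpud1: cgctgATTGGgCCACGttggg
Hyou1: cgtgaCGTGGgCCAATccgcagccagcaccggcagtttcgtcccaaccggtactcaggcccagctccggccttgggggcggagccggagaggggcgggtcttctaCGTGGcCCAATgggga

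The Hspa5 stretch lies at chr3:38452968-38452996 on the plus strand, and the Hsp90b1 stretch, which holds 2 elements in opposite orientations, at chr7:23012342-23012474 on the minus strand. The Xbp1 stretch lies at chr14:84604553-84604581 (plus), the Herpud1 stretch at chr19:10614816-10614836 (minus) and the Hyou1 stretch, with 2 copies of ERSE-II, at chr8:53602689-53602809 (plus). All 5 stretches end before the start of transcription. The shorter motif TGACGTG, the core of the UPRE element, was found for Hspa5 and Hyou1, and for 2.02% of genes. The letters TGATGNAA, the core of the CARE element to which ATF4 binds, were found for Herpud1, for 4.16% of genes and for 7 of 25 ATF4 and CHOP target genes with a window. CCAAT alone, which overlaps both ER stress elements, was found for 8 of the 9 members and 39.6% of genes. These matches describe letters in the windows, and binding was not measured.

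Between 30873228 and 42679748 read pairs per rat were assigned to genes (median 36302755). Levels are counts scaled to library size with TMM factors (CPM). Genes that exceeded 0.5 CPM in 1 rat or more entered limma-voom with 3 surrogate variables, which stand for unnamed variation. A gene passed at q < 0.1 after Benjamini-Hochberg adjustment over the 17853 genes tested. All Control rats carried one set of library index sequences, the Chronic Ethanol rats and Withdrawal rats 1 and 2 another, and Withdrawal rats 3 to 6 another again, so that index set and diet cannot be told apart in comparisons with Control. Markers of neurons, astrocytes and oligodendrocytes were present in every rat. In Withdrawal against Control, where 5.41% of all genes passed, 3 of 7 endothelial and mural markers (Pecam1, Flt1 and Pdgfrb) rose (summed level 334 to 461 CPM in Withdrawal and 311 to 375 CPM in Control rats), 1 of 8 astrocyte markers rose (Gfap) and 2 fell, 2 of 8 oligodendrocyte markers (Olig2 and Pdgfra) and 1 of 8 microglia markers (C1qb) rose, 1 of 8 neuron markers fell (Prox1), and 3 of 3 blood markers fell, as they did in Chronic Ethanol against Control. In Chronic Ethanol against Control 0.493% of all genes passed. Other markers went the other way in Withdrawal against Control. Of 8 oligodendrocyte markers 4 lay below 0, and 2 of these had an unadjusted limma p below 0.05, as had 19.7% of all genes. Of 8 microglia markers 4 lay below 0. In Withdrawal against Chronic Ethanol, where 2.72% of all genes passed, Gfap, Olig2, C1qb and the neuron marker Gad2 rose, each 1 of 8 markers of its list. The summed level of 7 choroid plexus markers was 28.8 and 32.3 CPM in Withdrawal rats 4 and 5, against 1119 to 5511 CPM in the other 16 rats. Values without these 2 rats are also given for Hspa5, Sdf2l1, Atf4, Ddit3, Xbp1 and Pdia4 and for the counts of list genes. Nothing in the labels says more of the rats than that each library is a separate sample. The limma p-values measure the spread between rats that is left after the 3 surrogate variables. The permutation tests given for single genes use no surrogate variables.

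None of the 10 ER stress genes passed the test in any of the 3 comparisons. Between Withdrawal and Control, 0 of 10 passed, where 5.41% of all genes did, and 1 of 10 (Atf4) had an unadjusted p below 0.05 by limma, as had 19.7% of all genes. Between Chronic Ethanol and Control, 0 of 10 passed against 0.493% of all genes, with 0 at an unadjusted p below 0.05 against 12.5%. Between Withdrawal and Chronic Ethanol, 0 of 10 passed against 2.72%, with 1 (Atf4) at an unadjusted p below 0.05 against 16.7%. The quasi-likelihood test of edgeR with the same surrogate variables also called 0 of 10 in each comparison, against 5.77%, 0.538% and 2.98% of all genes in that order. The median log2 fold change of the 10 was 0.01 in Withdrawal, −0.03 in Chronic Ethanol against Control, and 0.03 between Withdrawal and Chronic Ethanol, against medians within 0.0005 of 0 over all genes. The plot of levels by rat shows how far the groups overlapped.

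**Figure D1:**
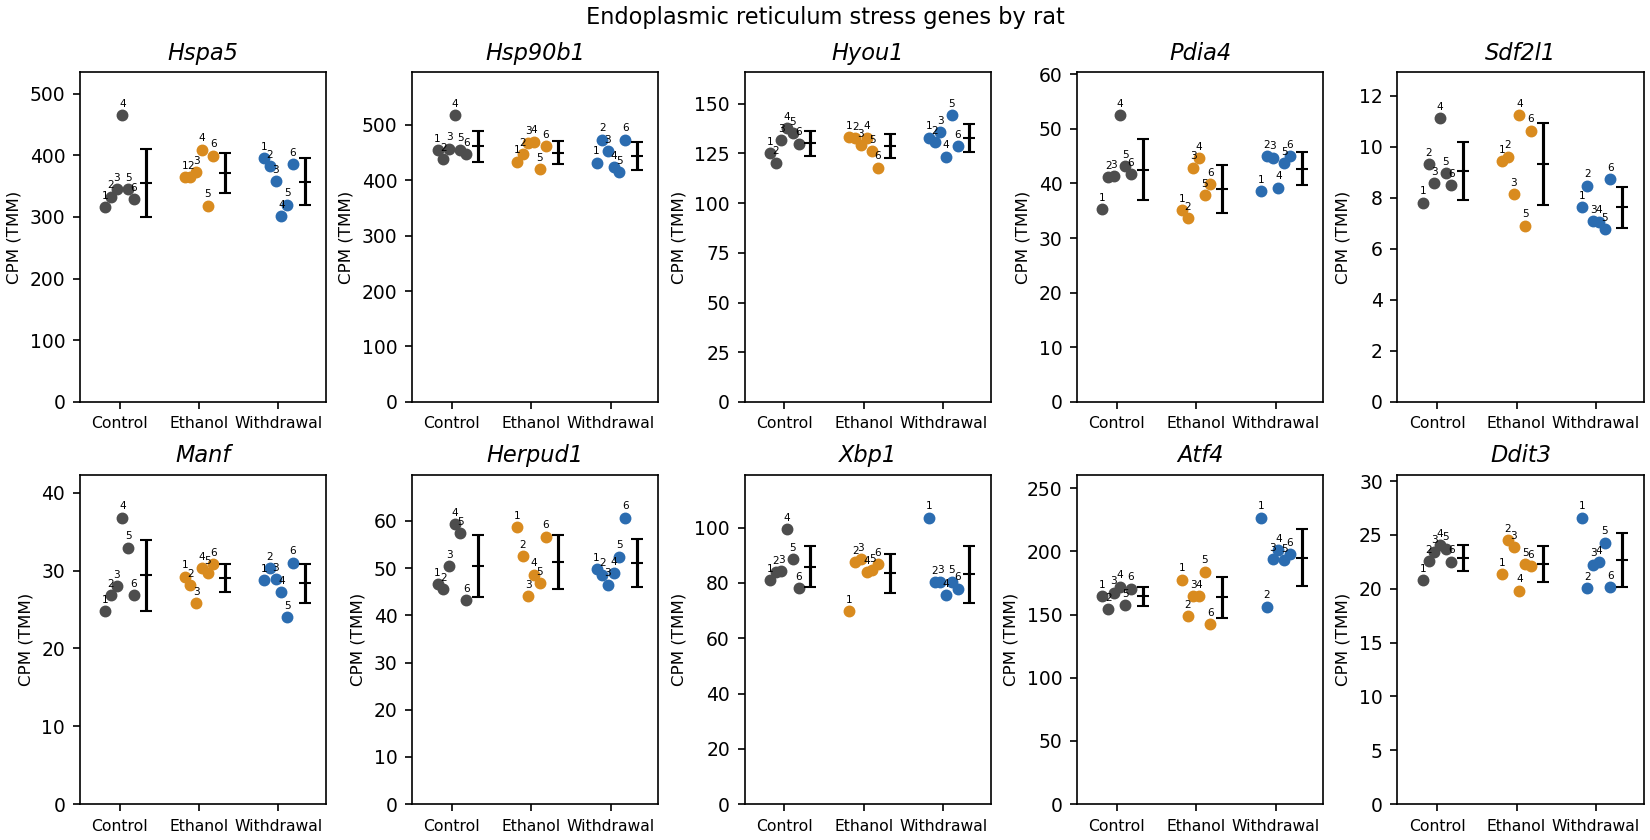
TMM-scaled CPM (vertical axes, from 0) of the 10 ER stress genes in each of 18 rats, with points numbered by replicate, and mean ± SD of 6 rats per group in black ("Ethanol" is Chronic Ethanol). The groups overlap for every gene, Control rat 4 is the highest rat for Hspa5, Hsp90b1, Pdia4 and Manf, and 5 of 6 Withdrawal rats lie above all Control rats for Atf4.

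The ER chaperones Hsp90b1 and Hspa5 came first by level. Per kb of exon, Hsp90b1 had the highest mean level in Control rats (165 CPM per kb, with a coefficient of variation of 6.10% over 6 rats), followed by Hspa5 (139 ± 21.4, SD, n = 6) and Atf4 (117 ± 5.13). Xbp1 followed with 46.7 ± 4.07 CPM per kb. Manf (29.2 ± 4.53), Hyou1 (27.9 ± 1.37) and Herpud1 (24.8 ± 3.25) were next and differed from each other by less than the SD of Manf. Pdia4 (18.3 ± 2.39), Ddit3 (11.3 ± 0.591) and Sdf2l1 (8.51 ± 1.07) had the lowest levels. The remaining levels are in CPM and are compared only between rats.

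Hspa5 encodes BiP, the main Hsp70 chaperone of the ER, which also holds the sensors inactive (GeneID 25617, Rnor_6.0 chr3:13838304-13842763). Its level ranged from 316 to 465 CPM in Control rats (median 339), from 318 to 409 in Chronic Ethanol rats (median 368) and from 302 to 395 in Withdrawal rats (median 371). The groups overlapped, and the highest of the 18 rats was Control rat 4. The log2 fold change was 0.06 ± 0.08 (SE, 95% interval −0.11 to 0.23) in Withdrawal and 0.03 ± 0.09 in Chronic Ethanol against Control, with limma q of 0.737 and 0.938. The interval for Withdrawal corresponds to a change of −7.56% to 17.2%.

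The 2 lowest Withdrawal levels of Hspa5, 302 and 320 CPM, were in rats 4 and 5, which had the low choroid plexus sums. Without them the Withdrawal mean was 380 ± 15.7 CPM (n = 4) in place of 357 ± 38.3, and the log2 fold change against Control was 0.08 (limma q = 0.844). The part of choroid plexus tissue in these levels was not tested. Without Control rat 4 the log2 fold change of Hspa5 was 0.14 ± 0.05, with a limma-voom p of 0.0193 and a q of 0.190.

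Hsp90b1 encodes GRP94, the Hsp90 chaperone of the ER (GeneID 362862, chr7:27226570-27240533, minus strand). It measured 438 to 517 CPM in Control rats (median 455), 419 to 470 in Chronic Ethanol rats (median 454) and 414 to 473 in Withdrawal rats (median 442). The log2 fold changes were −0.03 ± 0.04 in Withdrawal and −0.05 ± 0.04 in Chronic Ethanol against Control (limma q = 0.737 and 0.659). These were among the narrowest intervals, and in Withdrawal the interval ran from −7.91% to 4.17%.

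Hyou1 encodes GRP170, a large chaperone that exchanges the nucleotide of BiP (GeneID 192235, chr8:48699796-48711912). It measured 120 to 138 CPM in Control rats, 118 to 133 in Chronic Ethanol rats and 123 to 144 in Withdrawal rats, with medians of 131, 131 and 132. It varied less between rats of a group than any other member, with a within-group SD of 0.07 on the log2 scale, at percentile 12.1 of the genes with at least 5 CPM. Its log2 fold change was 0.02 ± 0.04 in Withdrawal against Control (limma q = 0.835; interval −4.68% to 7.79%).

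Pdia4 encodes ERp72, a disulfide isomerase (GeneID 116598, chr4:77470636-77489535, minus strand). Its levels were 35.3 to 52.5 CPM in Control rats (median 41.5), 33.6 to 44.7 in Chronic Ethanol rats (median 38.9) and 38.5 to 45.0 in Withdrawal rats (median 44.2). Of the Withdrawal rats, 3 of 6 lay above every Chronic Ethanol rat. The log2 fold change was −0.15 ± 0.09 in Chronic Ethanol against Control (limma q = 0.507), 0.18 ± 0.09 in Withdrawal against Chronic Ethanol (q = 0.333) and 0.03 ± 0.08 in Withdrawal against Control (q = 0.877). No value passed the test.

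Sdf2l1 encodes a component of ER chaperone complexes that works with BiP (GeneID 680945, chr11:88122271-88124513). It had the lowest level of the 10 genes, with 7.81 to 11.1 CPM in Control rats (median 8.78), 6.91 to 11.2 in Chronic Ethanol rats (median 9.54) and 6.77 to 8.74 in Withdrawal rats (median 7.36). Withdrawal rats lay low, with 4 of 6 below every Control rat and none above the Control mean. In Withdrawal against Control the log2 fold change was −0.19 ± 0.10 (limma q = 0.319; interval −24.9% to 1.96%). A two-sided exact permutation test of the mean log2 CPM, with no surrogate variables, gave p = 0.0238 for 6 rats against 6. It is unadjusted, 1 of 30 such tests, and the smallest p it allows is 0.00216. Withdrawal rats 4 and 5, with the low choroid plexus sums, were the lowest Withdrawal rats, at 7.06 and 6.77 CPM. Without them the log2 fold change against Control was −0.14 ± 0.14 (limma q = 0.801).

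Manf encodes a secreted neurotrophic factor kept in the ER (GeneID 315989, chr8:115623175-115626408, minus strand), and no promoter window was matched to it. Its medians were 27.4, 29.5 and 28.8 CPM in Control, Chronic Ethanol and Withdrawal rats, within an overall range of 24.0 to 36.8 CPM. Control rat 4 was again the highest. In Withdrawal against Control the log2 fold change was −0.0003 ± 0.07 (limma q = 0.999). Herpud1, whose product serves ER-associated degradation (GeneID 85430, chr19:11046905-11057440, minus strand), had medians of 48.5, 50.5 and 49.3 CPM within 43.2 to 60.7 CPM. Its log2 fold change in Withdrawal against Control was 0.05 ± 0.08 (limma q = 0.785).

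Among the transcription factors, Xbp1 showed no difference that passed, and rats 1 of both ethanol groups lay apart. Xbp1 (GeneID 289754, chr14:85753736-85758820) measured 78.2 to 99.4 CPM in Control rats (median 84.0), 69.7 to 88.7 in Chronic Ethanol rats (median 85.8) and 75.6 to 104 in Withdrawal rats (median 80.4). Chronic Ethanol rat 1 was the lowest of the 18 rats and Withdrawal rat 1 the highest. The log2 fold change was −0.05 ± 0.07 in Withdrawal and 0.03 ± 0.07 in Chronic Ethanol against Control (limma q = 0.700 and 0.910). Nudcd3 overlaps Xbp1 on the other strand, and the counting used strand.

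Ddit3 encodes CHOP, a factor linked to cell death in lasting ER stress (GeneID 29467, chr7:70578564-70585074). It measured 22.9 ± 1.19, 22.3 ± 1.69 and 22.6 ± 2.52 CPM in Control, Chronic Ethanol and Withdrawal rats (mean ± SD, n = 6 each), and all rats lay between 19.8 and 26.6 CPM. The log2 fold change was −0.06 ± 0.06 in Withdrawal against Control (limma q = 0.610; interval −11.2% to 4.28%) and 0.03 ± 0.06 in Chronic Ethanol against Control (q = 0.889). Mbd6 and Mars1 overlap Ddit3 on the other strand. Without Withdrawal rats 4 and 5 the value of Ddit3 was −0.14 ± 0.06 against Control (limma-voom p of 0.0464 and q of 0.472) and −0.14 ± 0.06 against Chronic Ethanol (limma-voom p of 0.0442 and q of 0.315). In the same model Xbp1 measured −0.11 ± 0.07 and Pdia4 0.07 ± 0.10 against Control, with limma q of 0.664 and 0.874.

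Atf4, which encodes the transcription factor translated when PERK and related kinases are active, had the highest levels in Withdrawal rats but did not pass the test. Atf4 (GeneID 79255, chr7:121480723-121482781) measured 154 to 172 CPM in Control rats (median 166), 142 to 184 in Chronic Ethanol rats (median 165) and 156 to 227 in Withdrawal rats (median 196). The 6 Withdrawal rats, from 1 to 6, measured 227, 156, 194, 201, 193 and 198 CPM. All but rat 2 lay above every Control and every Chronic Ethanol rat, so the groups overlapped through 1 rat.

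In Withdrawal against Control the log2 fold change of Atf4 was 0.23 ± 0.08 (1.17-fold, 95% interval 1.05 to 1.31), with a limma-voom p of 0.00859 and a q of 0.119. In Withdrawal against Chronic Ethanol it was 0.24 ± 0.09 (1.18-fold, 1.04 to 1.34), with a limma-voom p of 0.0128 and a q of 0.171, and without Withdrawal rats 4 and 5 it was 0.14 (q = 0.340). Between Chronic Ethanol and Control it was −0.01 ± 0.08 (limma q = 0.971). The 2 Withdrawal comparisons share their rats, as do the 2 comparisons with Control. Exact permutation tests of 6 rats against 6, two-sided and unadjusted, gave p = 0.0130 and p = 0.0238 for the Withdrawal comparisons.

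The side of the threshold on which Atf4 fell changed with the rats in the model. Without Withdrawal rat 2 the log2 fold change against Control was 0.31 (limma q = 0.0182), and without Chronic Ethanol rat 5 limma q was 0.0931. Without Withdrawal rat 6 limma q was 0.348. Without Withdrawal rats 4 and 5 the fitted log2 fold change dropped to 0.07 (limma q = 0.809), while the mean of the remaining 4 Withdrawal rats was 194 ± 28.9 CPM against 195 ± 22.6 CPM for all 6. Withdrawal rats 1 and 2, which carried the index set of the Chronic Ethanol rats, were the highest and the lowest Withdrawal rats. Their mean was 192 CPM, against 164 CPM in the 6 Chronic Ethanol rats, a log2 difference of 0.21. An exact permutation test of these 2 rats against 6, with the smaller tail doubled, gave p = 0.357. The smallest p this test allows is 0.0714.

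**Figure D2:**
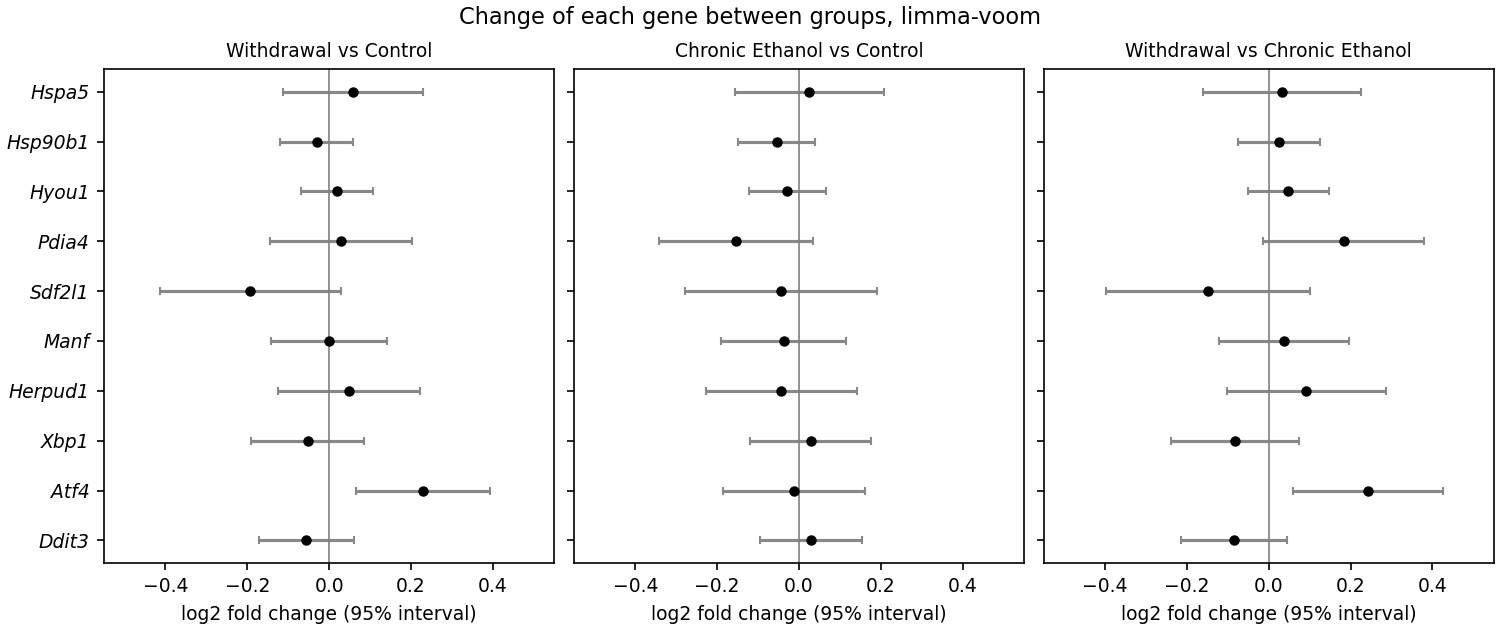
Log2 fold change from limma-voom (horizontal axes, points) with its 95% interval (bars) for the 10 ER stress genes in the 3 comparisons, from 18 rats in one model. The interval of Atf4 excludes 0 in both Withdrawal comparisons, although its q of 0.119 and 0.171 misses the threshold, and every other interval includes 0.

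Hspa5 varied from rat to rat with several other members. With each group centred on its own mean, log2 CPM of Hspa5 over the 18 rats had a Pearson correlation of 0.84 with Hsp90b1, the highest of 12134 genes with a mean of at least 5 CPM. Sdf2l1 ranked 4 (r = 0.81), Manf 10 (0.72) and Pdia4 38 (0.63). Xbp1 ranked 153 (0.56) and Herpud1 457 (0.47). Hyou1 ranked 2071 (0.26), Ddit3 5501 (0.03) and Atf4 7792 (−0.10). Like Hspa5, the promoters of Hsp90b1, Xbp1, Herpud1 and Hyou1 hold a full ER stress element. Those of Sdf2l1, Pdia4, Ddit3 and Atf4 hold none, and Manf had no window. A link between these elements and the ranks was not tested.

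The 5 genes outside the 10 with the patterns most like Hspa5 were Dnajb11 (r = 0.82), Zhx2 (0.81), Mien1 (0.77), Odc1 (0.77) and Pdia3 (0.75). Dnajb11 and Pdia3 encode a J-domain partner of BiP and a disulfide isomerase of glycoproteins, both in the ER. Among the members, Xbp1 and Ddit3 had r = 0.64, and Atf4 had −0.37 with Sdf2l1. These correlations describe the same 18 libraries for every pair of genes, which differed in depth and in choroid plexus sums, and no test was made on them.

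Control rat 4 carried part of the likeness. It was the highest of the 18 rats for 4 of 10 members (Hspa5, Hsp90b1, Pdia4 and Manf) and for 6 of 25 other ER chaperones and foldases, and was the highest for 4.30% of all genes. It had 31480318 counts and the fewest genes with a count (22586). Without it, r with Hspa5 was 0.76 for Hsp90b1, 0.78 for Sdf2l1, 0.56 for Manf, 0.44 for Pdia4 and 0.42 for Xbp1. Their ranks without it were 8 for Hsp90b1, 4 for Sdf2l1, 344 for Manf, 832 for Pdia4, 957 for Xbp1 and 1807 for Herpud1. The 5 genes most like Hspa5 also changed, since Tab2, Tmem263 and Slc16a6 then ranked 1 to 3, Odc1 5, Zhx2 19, Dnajb11 21, Pdia3 66 and Mien1 105. Leaving out the 2 rats with the Hspa5 levels farthest from the median, Control rat 4 and Withdrawal rat 4, gave 0.75 for Hsp90b1, 0.82 for Sdf2l1, 0.59 for Manf, 0.40 for Pdia4, 0.36 for Xbp1, 0.30 for Herpud1 and −0.11 for Hyou1. Without Control rat 4 the log2 fold changes of Hsp90b1, Xbp1 and Manf in Withdrawal turned from below 0 to 0.00, 0.00 and 0.06, none of which passed.

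**Figure D3:**
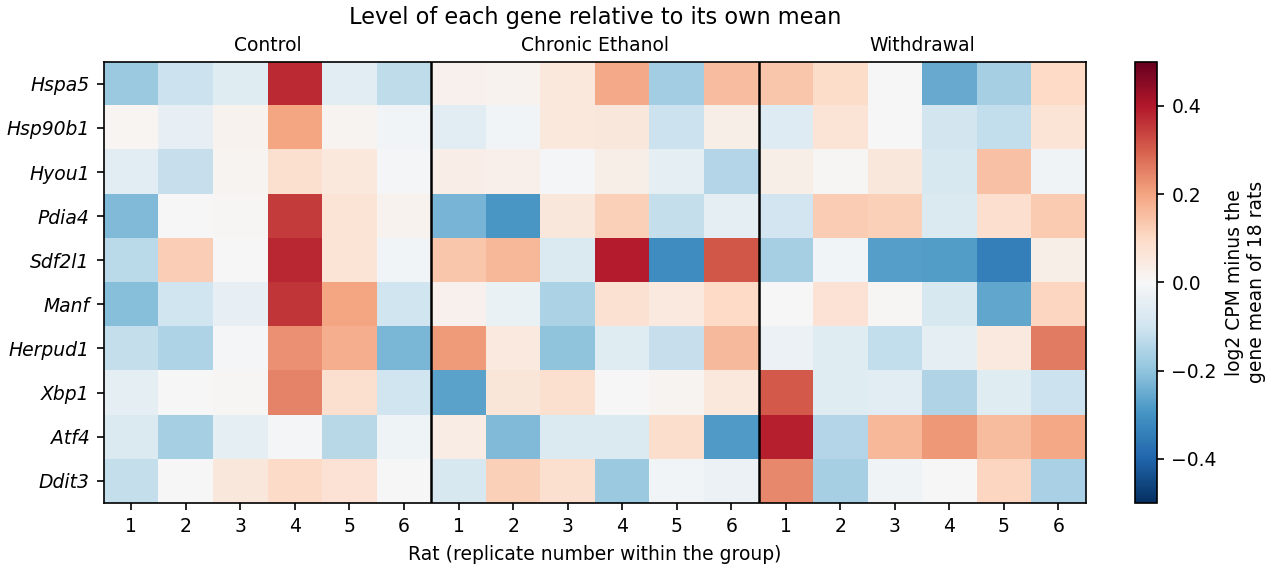
Log2 CPM of each ER stress gene (rows) in each rat (columns, by replicate number within the group), minus the mean of the gene over the 18 rats, with red above and blue below the mean. Control rat 4 is red for the chaperones and their partners, and Withdrawal rats 1 and 3 to 6 are red for Atf4.

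**Figure D4:**
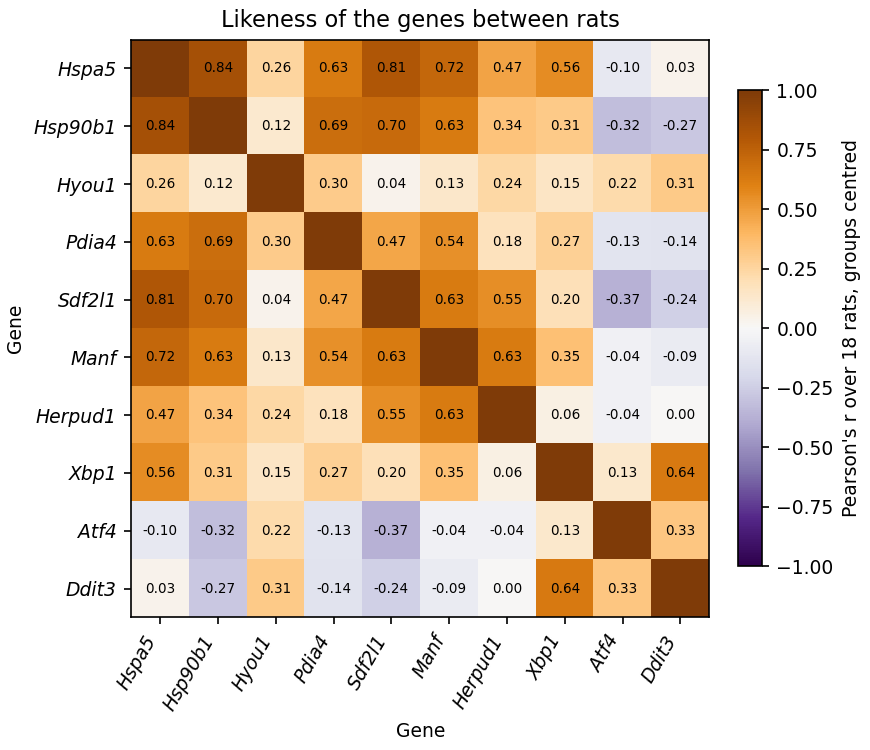
Pearson correlation between the ER stress genes over 18 rats on log2 CPM with each group centred on its own mean (colour and printed value). Hspa5 has values of 0.63 to 0.84 with Hsp90b1, Sdf2l1, Manf and Pdia4, pairs among those 4 go down to 0.47, Xbp1 and Ddit3 have 0.64 and Herpud1 and Manf 0.63, and Atf4 is below 0 with Hspa5, Hsp90b1, Pdia4, Sdf2l1, Manf and Herpud1, from −0.37 to −0.04.

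The wider pathway was read from 5 lists with 100 tested genes that are not among the 10. In Withdrawal against Control 5 of 100 passed, close to the 5.41% of all genes, with 2 that rose and 3 that fell, against 2.85% and 2.55% of all genes, and 17 had an unadjusted p below 0.05 against 19.7%. In Chronic Ethanol against Control 0 of 100 passed by limma against 0.493% of all genes, with 11 at an unadjusted p below 0.05 against 12.5%. The quasi-likelihood test of edgeR with the same surrogate variables called 1 of 100, against 0.538% of all genes. In Withdrawal against Chronic Ethanol 3 of 100 passed, all of which rose, against 2.72% of all genes in either direction and 1.23% that rose, and 26 had an unadjusted p below 0.05 (23 of them above 0) against 16.7%. The plot of the lists shows each gene.

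Among 25 ER chaperones and foldases 0 passed in any comparison by limma. In Withdrawal against Control, Chronic Ethanol against Control and Withdrawal against Chronic Ethanol, 5.41%, 0.493% and 2.72% of all genes passed. In the same order 2, 2 and 6 of these 25 had an unadjusted p below 0.05, where 19.7%, 12.5% and 16.7% of all genes had one. Their median log2 fold change was −0.01 in Withdrawal and −0.01 in Chronic Ethanol against Control. Pdia3, Calr, a lectin chaperone, and Dnajb11 had values of −0.02, −0.04 and 0.05 in Withdrawal against Control. The value farthest from 0, −0.61 ± 0.26, belonged to Cdnf, a relative of Manf with a mean of only 0.589 CPM, and did not pass. Of 15 genes of ER translocation 0 passed by limma in Withdrawal against Control, where 5.41% of all genes did, and 2 had an unadjusted p below 0.05, against 19.7%. Their median was 0.06, with 14 of 15 values above 0.

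Of 15 genes of ER-associated degradation, Derl2, a part of the channel that returns misfolded proteins to the cytosol, fell in Withdrawal against Control, 1 of 15 called (6.67%) against 5.41% of all genes. Its mean was 30.4 ± 1.00 CPM in Withdrawal and 33.4 ± 2.20 in Control rats, a log2 fold change of −0.12 ± 0.04 (limma q = 0.0924). Of the Withdrawal rats, 4 of 6 lay below every Control rat. Without any one of 16 of the 18 rats its q was above the threshold.

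Of 18 stress sensors and transducers, 1 rose and 1 fell in Withdrawal against Control (11.1% called, against 5.41% of all genes), and 1 rose in Withdrawal against Chronic Ethanol (5.56%, against 2.72%). Creb3l1, which encodes OASIS, an ER transmembrane transcription factor of the ATF6 kind, measured 8.87 ± 1.56 CPM in Withdrawal, 6.81 ± 0.271 in Control and 5.97 ± 1.13 in Chronic Ethanol rats. Its log2 fold change was 0.41 ± 0.11 against Control (limma q = 0.0577) and 0.61 ± 0.12 against Chronic Ethanol (q = 0.0387). The exception was Withdrawal rat 5 with 6.10 CPM, below every Control rat. Mbtps2, the site-2 protease that cuts ATF6, measured 30.4 ± 2.08 CPM in Control rats and fell in Withdrawal rats (log2 fold change −0.22 ± 0.06, limma q = 0.0638), and all 6 Withdrawal rats lay below every Control rat, as for 0.538% of all genes. The sensors Ern1, Eif2ak3 and Atf6 had log2 fold changes of 0.13, −0.05 and 0.03 in Withdrawal against Control and did not pass.

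Of 27 ATF4 and CHOP target genes, 1 rose and 1 fell in Withdrawal against Control (7.41% called, against 5.41% of all genes), and 2 rose in Withdrawal against Chronic Ethanol (7.41%, against 2.72%). The median log2 fold change was 0.12 in Withdrawal against Control, with 25 of 27 above 0, −0.01 in Chronic Ethanol against Control, and 0.11 in Withdrawal against Chronic Ethanol. An unadjusted p below 0.05 was found for 9 of 27 in Withdrawal against Control, where 19.7% of all genes had one. The count was 11 of 27 in Withdrawal against Chronic Ethanol (16.7% of all genes) and 5 of 27 in Chronic Ethanol against Control (12.5%). Slc7a5, a transporter of large neutral amino acids, rose from 53.0 ± 2.81 CPM in Control to 60.5 ± 2.93 in Withdrawal rats (log2 fold change 0.20 ± 0.05, limma q = 0.0493) and from 51.6 ± 3.32 in Chronic Ethanol rats (0.23 ± 0.06, q = 0.0626). All 6 Withdrawal rats lay above every Chronic Ethanol rat for Slc7a5, as for 0.611% of all genes. The part of the marker genes that moved in the same comparison in these values was not tested.

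Asns, the asparagine synthetase gene and a standard ATF4 target, went the other way. It fell from 83.8 ± 3.34 CPM in Control to 75.0 ± 7.33 in Withdrawal rats (log2 fold change −0.13 ± 0.04, limma q = 0.0933), and measured 74.1 ± 7.30 CPM in Chronic Ethanol rats (−0.15 ± 0.04, q = 0.158). Without any one of 13 of the 18 rats the q of Asns in Withdrawal against Control was above the threshold, as in 8 of 13 other models. Stc2, a secreted glycoprotein gene induced in ER stress, rose from 0.631 ± 0.189 CPM in Chronic Ethanol to 1.38 ± 0.577 in Withdrawal rats (log2 fold change 1.07 ± 0.29, limma q = 0.0835). Other targets of ATF4 or CHOP did not pass in Withdrawal against Control, with log2 fold changes of 0.13 for Chac1, 0.73 for Trib3 at a mean of 0.244 CPM, and 1.26 ± 0.49 for Atf3 (q = 0.166).

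The calls on these list genes depended on single rats. The share of all genes called moved in the same direction in each of these models. Without Withdrawal rat 6 the 5 genes of Withdrawal against Control became 0 (0.129% of all genes called), as they did without Withdrawal rat 1 (3.12%) or without rats 4 and 5 together (0.0394%), and without Withdrawal rat 2 there were 10 (10.7%). Without Withdrawal rat 6, Chronic Ethanol rat 2 or Chronic Ethanol rat 3 the 3 genes of Withdrawal against Chronic Ethanol became 0, as did the count over all genes by limma, and without Chronic Ethanol rat 5 there were 18 (10.1% of all genes). In models with no surrogate variables 0 of 100 passed in Withdrawal against Control by limma, where 0.230% of all genes did, 0 by edgeR (0.185%) and 3 by DESeq2 (2.44%).

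**Figure D5:**
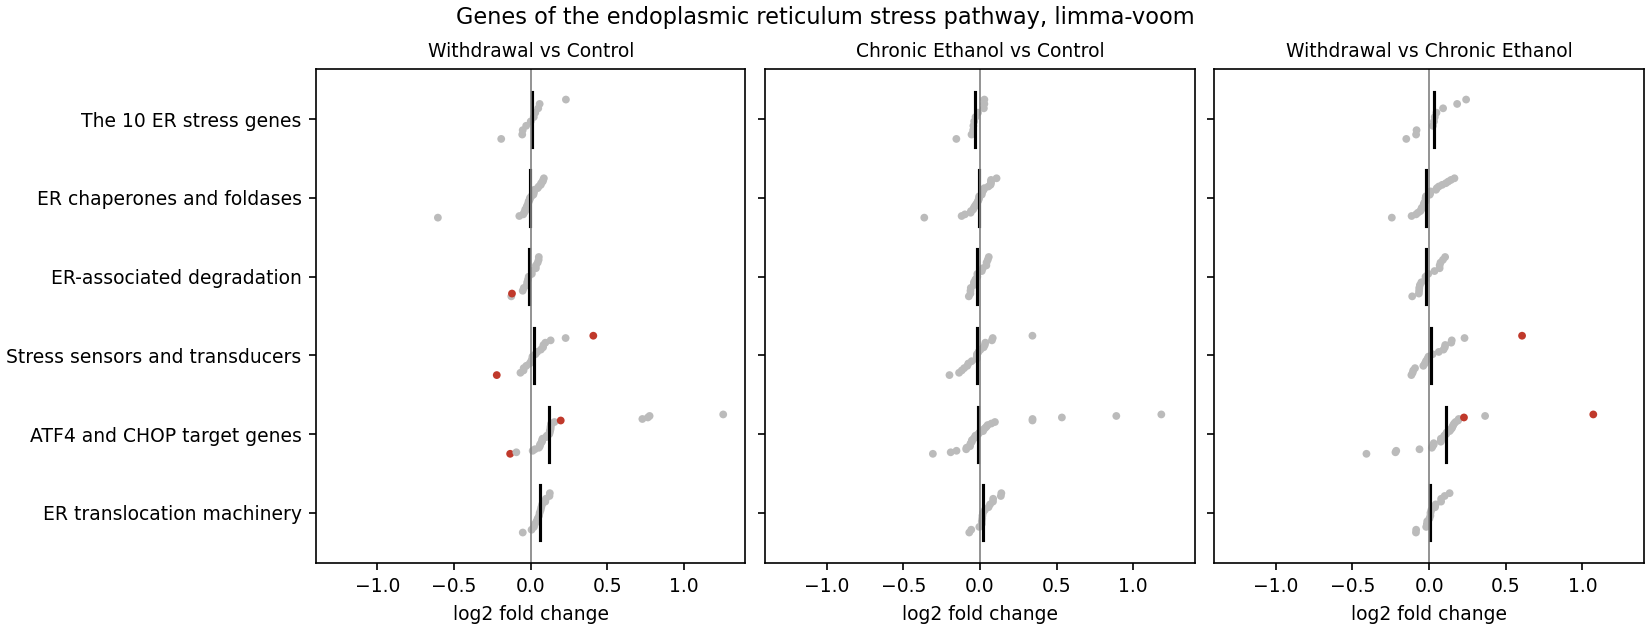
Log2 fold change (horizontal axes) of every tested gene of the 10 ER stress genes and the 5 pathway lists (rows) in the 3 comparisons, with genes at q < 0.1 in red, the others in grey, and the median of each list as a black bar. The medians lie near 0 except for the ATF4 and CHOP target genes in the Withdrawal comparisons (0.12 and 0.11).

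Heat shock and activity genes respond to other stresses. Of 11 cytosolic heat shock genes, 1 passed in Withdrawal against Control (9.09%, against 5.41% of all genes), 0 in Chronic Ethanol against Control by limma (against 0.493%), and 1 in Withdrawal against Chronic Ethanol (9.09%, against 2.72%). Hspb1, a small heat shock protein gene, rose from 6.08 ± 1.27 CPM in Control to 13.7 ± 8.40 in Withdrawal rats (log2 fold change 1.13 ± 0.28, limma q = 0.0467). The Withdrawal mean rested on rats 1 and 6 with 24.4 and 24.3 CPM, and the other 4 Withdrawal rats measured 5.89 to 11.0 CPM. Without Withdrawal rat 6 limma q was 0.202. Hspa1a, an Hsp70 gene whose reads may be lost to a near-identical copy, fell in Withdrawal against Chronic Ethanol (0.499-fold, 95% interval 0.343 to 0.724, limma q = 0.0693), where Chronic Ethanol rat 5 was highest with 3.23 CPM and without it q was 0.133. Of 10 immediate early genes 0 passed by limma in the 3 comparisons, against 5.41%, 0.493% and 2.72% of all genes, and in Chronic Ethanol against Control all 10 had values above 0, with 8 at an unadjusted p below 0.05, against 12.5% of all genes. Their summed level was 708 CPM in Chronic Ethanol rat 5, 179 to 325 CPM in the other 5 Chronic Ethanol rats and 203 to 316 CPM in Control rats.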

How the data were processed

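RNA of the dorsal hippocampus was sequenced as stranded paired-end libraries. The authors aligned reads with STAR 2.5.2a to Rnor_6.0 (NCBI annotation) and deposited raw counts of read pairs per gene from featureCounts 1.5.0, made on exons by strand and not normalized. Reads with several places of alignment were left out of these counts. Groups came from the labels. Gene symbols came from a RefSeq table of GRCr8, which matched 29322 of 38445 identifiers, and gene coordinates are those of the files.

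Counts were normalized with TMM (edgeR 4.0.16), filtered at above 0.5 CPM in at least 1 rat, and tested with limma-voom 3.58.1 with 3 surrogate variables (sva 3.50.0, log2 CPM with a prior count of 2) in R 4.3.3, all 18 rats in one model, with moderated 95% intervals. The number of surrogate variables is not given in the sources used here. Fold changes are log2. Single values were compared by exact permutation tests (scipy 1.17.1). The rule for the 10 genes uses symbols alone, but these genes and all lists were chosen with earlier results of these data known. Named genes are the 10, the called genes of each list (up to 3 that rose and 3 that fell, 2 for heat shock and immediate early genes), and the 5 genes most like Hspa5. Genes named outside this rule (Pdia3 and Dnajb11 as list members, Calr, Cdnf, Ern1, Eif2ak3, Atf6, Chac1, Trib3, Atf3, the cell markers, and Tab2, Tmem263 and Slc16a6) were chosen after their values were seen. The fit was tested on simulated data. Alternatives were other numbers of surrogate variables, edgeR quasi-likelihood, DESeq2 1.42.0, RLE factors, other filters, a stricter threshold, only the groups compared, sample quality weights, a replicate block, and leaving out each rat. Among the 10 genes depth was lowest for Sdf2l1, with 235 to 455 counts per rat, and of the called genes Stc2 had 15 to 75 and Hspa1a 22 to 114.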

Additional observations from a re-analysis of the deposited data

Results flagged for a closer look

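The rats named here lay far from the other 5 of their group by Dixon's ratio at the 95% level for 6 values. By chance about 1 in 20 groups would hold such a rat. Of the 30 groups of the 10 ER stress genes 4 held one, and of all 54 groups looked at 10 did.

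Control rat 4 had 465 CPM of Hspa5, where the next Control rat had 345 CPM, and 517 CPM of Hsp90b1, where the next had 457 CPM. It also had 34.7 CPM of Mbtps2, where the next had 29.9 CPM. Chronic Ethanol rat 1 had 69.7 CPM of Xbp1, below the next at 84.0 CPM, and this rat had the highest summed level of 8 thalamus markers (1807 CPM). Withdrawal rat 1 had 104 CPM of Xbp1, above the next at 80.5 CPM, and 22.2 CPM of Mbtps2, below the next at 26.2 CPM. It also had the highest summed level of 10 immediate early genes among Withdrawal rats (703 CPM), and the part of this in its values was not tested. Chronic Ethanol rat 5 had 87.8 CPM of Asns (next 74.9 CPM) and 3.23 CPM of Hspa1a (next 1.58 CPM). Control rat 3 had 58.5 CPM of Slc7a5 (next 52.9 CPM), and Chronic Ethanol rat 3 had 5.48 CPM of Hspb1, below the next at 7.82 CPM.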

How the results depend on the processing

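Of the 10 genes, 1 (Atf4) passed in Withdrawal against Control in 5 alternatives, with the share of all genes called in brackets. These were 4 surrogate variables (7.63%), DESeq2 (2.44%), only the 2 groups compared (6.6%), sample quality weights (6.34%) and the replicate block (5.27%). In Withdrawal against Chronic Ethanol 1 (Atf4) passed with edgeR quasi-likelihood (3.82%) and DESeq2 (8.08%), both without surrogate variables, and sample quality weights (6.01%). The count ran from 0 to 1 in both when single rats were left out (0.129% to 10.7% and 0% to 10.1% of all genes). It stayed at 0 in Chronic Ethanol against Control under every alternative (0% to 2.46% of all genes). Over the alternatives that kept all rats of the groups compared or left out rats 4 and 5, limma, edgeR or DESeq2 q of Atf4 ran from 0.0701 to 0.809 against Control and from 0.0377 to 0.353 against Chronic Ethanol.

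Brackets here give the share of all genes called in the same model. Of the 100 other pathway genes, 5 passed in Withdrawal against Control (5.41%). There were 0 without surrogate variables by limma (0.23%) or edgeR (0.185%), and 0 without rats 4 and 5 (0.0394%). There were 3 with 2 surrogate variables (3.33%) or DESeq2 (2.44%), 2 with no filter (1.66%) and 1 at q < 0.05 (2.07%). With only the 2 groups compared there were 8 (6.6%). In Chronic Ethanol against Control 0 (0.493%) became 1 with 4 surrogate variables (1.24%) or the filter on 6 rats (0.728%). It also became 1 by edgeR with 3 surrogate variables (0.538%) or none (0.347%), and 2 with DESeq2 (2.41%) or quality weights (2.46%). In Withdrawal against Chronic Ethanol 3 (2.72%) became 7 without surrogate variables by limma (3.48%) or edgeR (3.82%), or with quality weights (6.01%). It became 6 with 4 surrogate variables (5.02%), 16 with DESeq2 (8.08%), and 1 with no filter (0.566%) or at q < 0.05 (0.627%). It became 0 with only the 2 groups compared (0%) or the replicate block (0.0056%). With single rats left out the counts ran from 0 to 10, 0 to 3 and 0 to 18. The shares of all genes then ran from 0.129% to 10.7%, 0% to 1.45% and 0% to 10.1%. The rats with one number are different animals, and the correlation of their deviations between groups ran from −0.325 to 0.383. Rats with different numbers were not compared in this way. The rats were pair fed, and whether the numbers mark pairs was not tested. The replicate block called 1 gene of all genes in Withdrawal against Chronic Ethanol, in place of 486. Over all genes, the 965 of Withdrawal against Control became 33 with edgeR without surrogate variables, 1362 with 4, 7 without rats 4 and 5, 23 without Withdrawal rat 6 and 1911 without Withdrawal rat 2, so the share of all genes set beside the counts also rests on single libraries, and the 88 of Chronic Ethanol against Control became 9 with no filter, 440 with quality weights, and 0 without Control rat 4 by limma. The 486 of Withdrawal against Chronic Ethanol ran from 0 to 1800 with single rats left out.

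Values of the 10 genes near 0 changed sign without passing. Against Control in Withdrawal these were Hsp90b1 (0.026) and Herpud1 (−0.060) without rats 4 and 5, and Manf with 2 surrogate variables (0.0053), no filter (0.0077) and the replicate block (0.013). In Chronic Ethanol they were Atf4 with the replicate block (0.018), Ddit3 without rats 4 and 5 (−0.0012), Xbp1 with 2 surrogate variables (−0.0020), and, with limma, edgeR and DESeq2 without surrogate variables in that order, Xbp1 (−0.039, −0.039 and −0.041), Ddit3 (−0.039, −0.035 and −0.037), Herpud1 (0.026, 0.023 and 0.020) and Sdf2l1 (0.045, 0.045 and 0.043). In Withdrawal against Chronic Ethanol the same 3 models gave Hspa5 (−0.058, −0.056 and −0.055, and −0.020 with quality weights), Hsp90b1 (−0.018, −0.017 and −0.016), Ddit3 (0.011, 0.020 and 0.020) and Manf (−0.034, −0.032 and −0.032), and the latter 2 models Herpud1 (−0.0019 and −0.0012). With single rats left out, ranges that crossed 0 in Withdrawal against Control were −0.044 to 0.0022 for Hsp90b1, −0.11 to 0.0013 for Xbp1, −0.015 to 0.082 for Pdia4, −0.022 to 0.087 for Herpud1, −0.0039 to 0.039 for Hyou1 and −0.039 to 0.055 for Manf. In Chronic Ethanol against Control they were −0.015 to 0.11 for Hspa5, −0.098 to 0.056 for Atf4, −0.080 to 0.018 for Manf and −0.11 to 0.096 for Sdf2l1. In Withdrawal against Chronic Ethanol they were −0.045 to 0.076 for Hspa5, −0.019 to 0.056 for Hsp90b1 and −0.00077 to 0.17 for Herpud1. Leaving out rats 4 and 5 was chosen after seeing the data. The causes were not tested.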
